A study of Caenorhabditis elegans with 60 samples.

Results

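The met-2 nrde-3 double mutant of Caenorhabditis elegans kept H3K9me3 on a minor part of the sequence that carries it in the wild type. The double mutant also carried it on domains that lack it in the wild type, most of them in the centres of the autosomes. Its 3 chromatin preparations gave 3 H3K9me3 libraries and 3 libraries labelled as their inputs, which are 6 of the 30 libraries of the series and 12 of its 60 records, since each library was run 2 times. The libraries were chosen by genotype and library type alone. Because the input names of met-2 nrde-3 and nrde-3 go against the read depth at several places, every result was computed with the inputs as labelled and again with the 3 inputs labelled nrde-3.

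H3K9me3, a histone H3 tail with 3 methyl groups on lysine 9, is a hallmark of silent chromatin over repeats and inactive genes. In C. elegans, MET-2 is the enzyme that mainly adds the first methyl groups to this lysine, and SET-25 is the enzyme that adds the last one. NRDE-3 is an Argonaute protein that carries small interfering RNAs into the nuclei of somatic cells, where the pathway leads to H3K9 methylation of the matching genes. The autosomes of this worm have repeat-rich arms, where H3K9 methylation is concentrated, and centres with more of the widely expressed genes.

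The material was early embryos collected before the bean stage from synchronized worms. The double mutant carries met-2(n4256) on chromosome III and nrde-3(tm1116) on X. The other genotypes used here were nrde-3(tm1116), the double mutant of lin-61(tm2649) and met-2(n4256), here lin-61 met-2, the single mutant lin-61(tm2649), and the wild type N2 (Bristol). LIN-61 is a chromatin protein with MBT domains, and by its title the series is about NRDE-3 and LIN-61 as separate routes by which the methyltransferase reaches chromatin. The label of met-2 nrde-3 names no mutation in set-25, and whole embryos mix all their cell types. Fragments were sequenced from both ends. The target is H3K9me3 by the titles, but the protocol for extraction lists an antibody to the nuclear membrane protein LEM-2. The number of replicates is 2 in the growth protocol and 3 in that for extraction, the titles and the table.

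The met-2 nrde-3 H3K9me3 libraries held 45137188 to 58771814 counts, the inputs labelled met-2 nrde-3 47874152 to 53336630, and the inputs labelled nrde-3 48369402 to 62101882. The libraries of the whole series held 22265768 to 65845682 counts. N2 replicate 1 was left out wherever N2 is used, because its H3K9me3 over input ran against that of the other 2 preparations: Pearson's r across windows with their mean was -0.763, and 0.0259% of its windows reached a log2 level of 1, against 17.96% in replicate 2 and 20.56% in replicate 3.

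Depth at places that differ between the strains was examined before any enrichment. On chromosome III, where the met-2 allele lies per the labels, the 3 windows from 8376067 to 8377566 had a depth of 0.0638 to 0.0744 times the median window of the same library in the met-2 nrde-3 H3K9me3 libraries. In the inputs labelled met-2 nrde-3 the same windows stood at 1.01 to 1.04, and in those labelled nrde-3 at 0.0607 to 0.0652. The lin-61 met-2 inputs, which share the met-2 allele, stood at 0.0596 to 0.0772, and the N2 inputs at 1.03 to 1.06. The inputs labelled nrde-3 therefore had the low depth of the met-2 nrde-3 H3K9me3 and lin-61 met-2 input libraries, and the inputs labelled met-2 nrde-3 did not. Which gene these windows hold was not looked up, because the annotation at hand is of another build. On chromosome V from 18443897 to 18465896 the low depth lay in the nrde-3 H3K9me3 libraries instead, at 0.0291 to 0.0891. The inputs labelled met-2 nrde-3 were also low there, at 0.00727 to 0.0364. The met-2 nrde-3 H3K9me3 libraries stood at 2.55 to 3.92 and the inputs labelled nrde-3 at 0.815 to 0.840. As on III, low depth was thus shared between the H3K9me3 libraries of 1 label and the inputs of the other. On X, where the nrde-3 allele lies, the window with the lowest depth in both sets of inputs relative to N2 inputs was picked. It lay from 371736 to 372235. Its depth was 0.203 to 0.223 in the inputs labelled met-2 nrde-3 and 0.241 to 0.258 in those labelled nrde-3, against 1.03 to 1.09 in N2 inputs. The low depth under both labels thus follows from the choice and is no check of the labels. Whether the window lies in the nrde-3 allele was not looked up.

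Tested against each other with edgeR's quasi-likelihood test, the inputs labelled met-2 nrde-3 and nrde-3 differed in 341 of 200570 windows at a Benjamini-Hochberg adjusted p under 0.05, which is 0.17%, with 200 windows (0.0997%) higher and 141 (0.0703%) lower in those labelled met-2 nrde-3. Without replicate 3 the number was 158 and without replicate 2 it was 216. Of the 341 windows, 322 lay in 14 loci of at least 3 called windows. In 12 of the 14 loci the difference in the H3K9me3 libraries of the same 2 labels had the opposite sign. The largest locus, 74000 bp on chromosome V from 18942395 to 19016394, was higher in the inputs labelled met-2 nrde-3 by a log2 of 0.93 and lower in the met-2 nrde-3 H3K9me3 libraries by a log2 difference of -2.02. Outside such loci the choice of inputs made little difference, as the counts below show.

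With the inputs as labelled, 14693 of 200570 windows of 500 bp were enriched at least 2-fold in met-2 nrde-3 H3K9me3 over input, which is 7.33% of the windows tested by edgeR at an adjusted p under 0.05. With the inputs labelled nrde-3, 14258 of 200568 windows were enriched by the same rule, which is 7.11%. Both choices called 13809 windows, 94.0% of the first set and 96.9% of the second. Across windows, the mean level obtained with one set of inputs correlated with that obtained with the other at r = 0.969, a description over 200579 windows that share the H3K9me3 libraries. The 2-fold limit and not the p-value set these counts, since 14693 and 14259 windows reached 2-fold at all. At least 2-fold below input were 142 windows (0.0708%) with the inputs as labelled and 0 with the inputs labelled nrde-3, where 6034 windows were lower at an adjusted p under 0.05 with no limit on the fold, and the lowest log2 change was -0.84.

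Enriched windows were joined across at most 1 other window, and runs of at least 3 enriched windows were taken as domains. This gave 1433 domains covering 6.908 Mb with the inputs as labelled and 1387 domains covering 6.711 Mb with the inputs labelled nrde-3. The domains held 92.7% of the enriched windows in both cases. Of the domains found with the inputs as labelled, 1341 overlapped one found with the other inputs, and 92 did not; in the other direction 1346 overlapped and 41 did not. The median domain was 3000 bp long with the inputs as labelled, with quartiles of 2000 and 6000 bp, and 3500 bp with the inputs labelled nrde-3, with the same quartiles. Domains of 10000 bp or more numbered 149 and 144, and those of 20000 bp or more 23 and 22.

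Each domain was then classed by its mean level in N2, where a level is the log2 of scaled H3K9me3 over scaled input with a pseudocount of 8 counts, averaged over the windows of the domain. Domains at an N2 level of at least 1 are called remaining, those under 0.5 are called new, and the others intermediate. The N2 level of a class is therefore fixed by the rule and is no result. With the inputs as labelled, 601 domains were remaining, 726 new and 106 intermediate. The classes held 573, 708 and 106 domains with the inputs labelled nrde-3. New domains outnumbered remaining ones at these settings, but not at a 3-fold limit, with 363 new and 397 remaining domains with the inputs as labelled and 349 and 377 with the inputs labelled nrde-3. With scaling by library totals there were 448 new and 451 remaining domains with the inputs as labelled, and 436 and 423 with the inputs labelled nrde-3. The domain just inside the limit of the remaining class had an N2 level of 1.001 and the one just outside 0.991 with the inputs as labelled; at the limit of the new class the neighbours lay at 0.496 inside and 0.501 outside. An N2 level within 0.1 of the lower limit was found for 59 domains, and within 0.1 of the upper limit for 35.

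New and remaining domains lay in different parts of the chromosomes. Of the 726 new domains found with the inputs as labelled, 493 (67.9%) lay in the centre of an autosome, taken as the middle of its length once an outer 0.333 at each end is set apart as an arm. The left arms held 70 new domains, the right arms 89 and the X chromosome 74. Of the 601 remaining domains, 52 lay in centres, 237 in left arms, 233 in right arms and 79 on X. With the inputs labelled nrde-3, 487 of 708 new domains (68.8%) and 53 of 573 remaining domains lay in centres. The intermediate domains were spread differently again, with 31 of 106 on X and 41 in centres with the inputs as labelled.

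**Figure D1:**
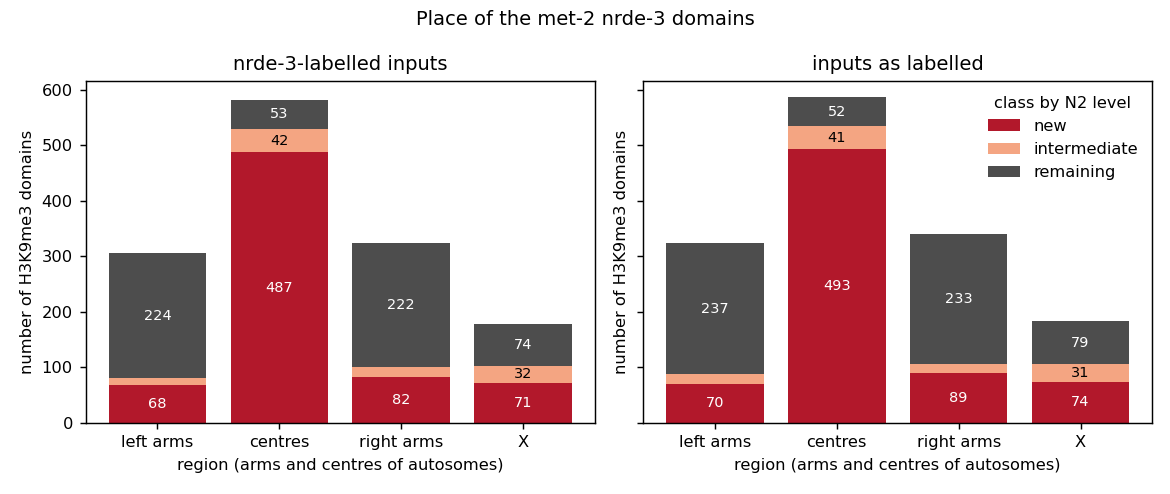
Number of met-2 nrde-3 H3K9me3 domains (vertical axis) in left arms, centres and right arms of the autosomes and on X, with the inputs labelled nrde-3 (left panel) and as labelled (right panel), stacked by class. Centres hold 487 and 493 new domains, and the arms hold most of the remaining ones.

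Counted by windows, 11.8% of the autosomal centres were enriched in met-2 nrde-3 with the inputs as labelled, against 5.79% of the arms, 5.14% of X and 0% of the 28 mitochondrial windows. The centres stood at 11.6% and the arms at 5.53% with the inputs labelled nrde-3. In N2 the order was the reverse, with 2.55% of the windows of centres and 31.1% of those of arms at a level of at least 1, so the double mutant differed from N2 in which part of the chromosome held more of the mark. N2 windows were counted by level alone, without a test. Within 50 kb of the 12 chromosome ends, 4.46% of the windows were enriched in met-2 nrde-3, and 31.2% reached a level of 1 in N2.

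The mean level over whole regions was compared with nrde-3, which shares the nrde-3 allele and lacks that of met-2. In centres the level was 0.28, 0.28 and 0.33 in the met-2 nrde-3 preparations, against -0.16, -0.24 and -0.06 in nrde-3. In left arms it was 0.06, 0.05 and 0.04 in met-2 nrde-3, against 0.29, 0.52 and 0.22 in nrde-3. Right arms followed the left arms, with 0.06 ± 0.01 in met-2 nrde-3 and 0.40 ± 0.15 in nrde-3 (SD, n = 3 each). The preparations of the 2 genotypes did not overlap in any of these regions, with higher values of met-2 nrde-3 in centres and lower ones in both arms. The mean differences were 0.45 in centres, -0.30 in left arms and -0.34 in right arms. On X met-2 nrde-3 averaged 0.07 ± 0.01 and nrde-3 0.04 ± 0.01 (SD, n = 3 each), a difference of 0.03. Each of the 4 exact two-sided permutation tests gave p = 0.1, the smallest that 3 preparations against 3 allow, and an adjusted p of 0.1, so this design cannot pass 0.05. With the inputs of the 2 genotypes exchanged the differences were 0.44, -0.31, -0.33 and 0.04 in the same order of regions, again without overlap. Scaled by library totals they were 0.61, -0.13, -0.17 and 0.19 with the inputs as labelled, and the preparations then overlapped in both arms and on X (exact permutation p = 0.3 each) but not in centres (exact permutation p = 0.1). N2 stood at -0.23 in centres, 0.76 in left arms and 0.79 in right arms. Levels are scaled within each genotype, so a change of the mark by one factor over the whole genome would not show in them.

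**Figure D2:**
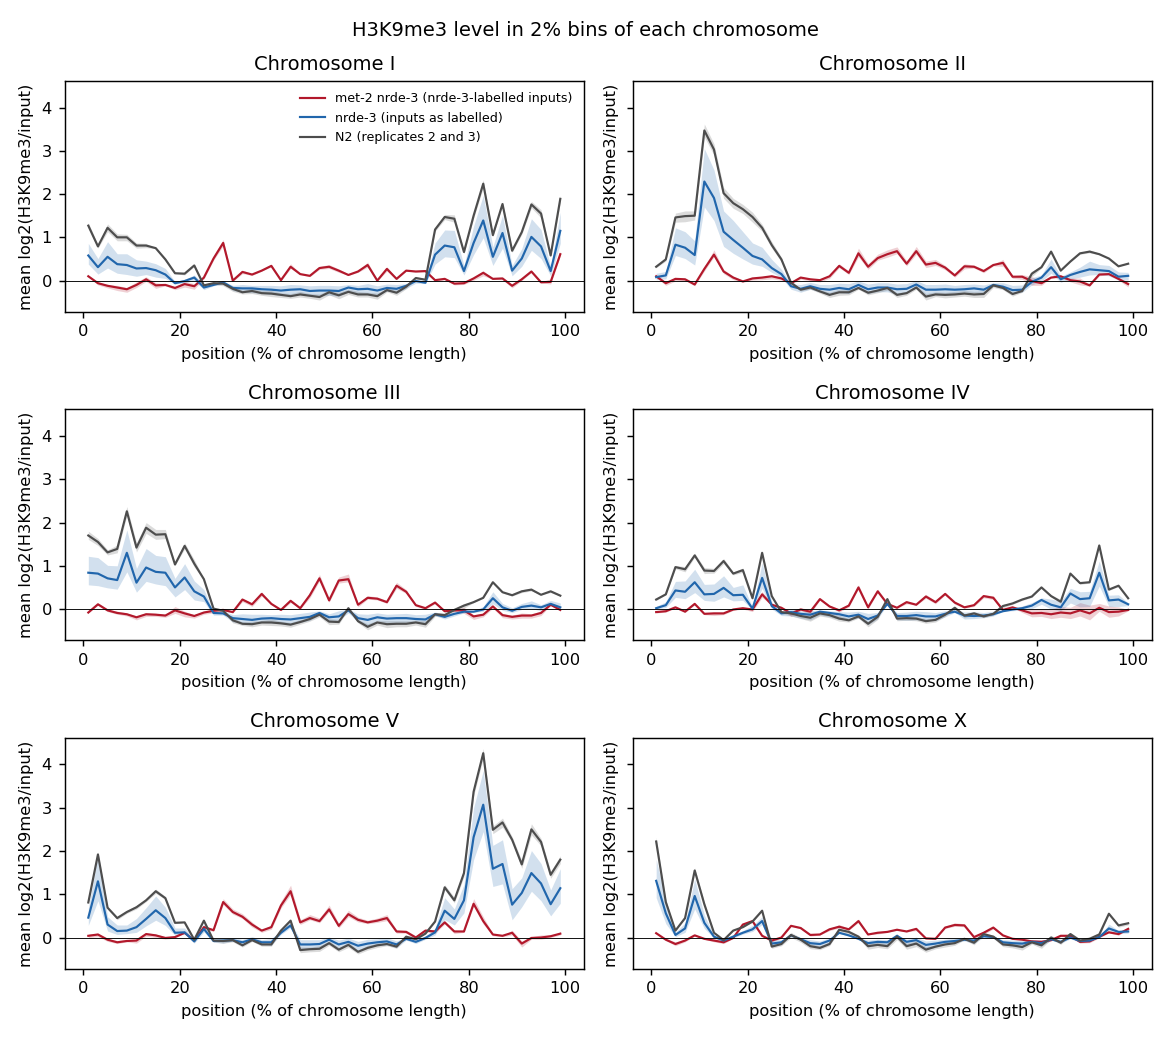
Mean log2 level of H3K9me3 over input (vertical axis) in bins of 2% of the length of each chromosome (horizontal axis), for met-2 nrde-3 with the inputs labelled nrde-3, nrde-3 with inputs as labelled, and N2; bands show the lowest and highest preparation. The met-2 nrde-3 line lies above the others over most of the autosomal centres, where the region mean was 0.29, but not in a bin at 49% of chromosome IV, with 0.12 in met-2 nrde-3, against 0.12 in nrde-3 and 0.23 in N2.

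The 5 autosomes and X did not share the domains evenly. Chromosome V had the most, 352 domains covering 1941 kb with the inputs as labelled, of which 155 were remaining and 178 new, and 14.9% of the windows of its centre were enriched. Chromosome II followed with 290 domains, 115 remaining and 160 new, with 115 of the new ones in its centre. Chromosome III had 176 domains, of which 50 were remaining and 115 new. Its left arm had the smallest share of enriched windows among the arms, with 2.55% of its windows enriched in met-2 nrde-3 and 45.9% at a level of at least 1 in N2. Chromosome I had 104 remaining and 102 new domains, IV 98 and 97, and X 79 and 74. The right arm of V was the arm with the largest share of enriched windows, 7.87%, and held 88 remaining and 8 new domains.

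The sequence covered by new domains was unevenly spread, which was not tested against an even spread. Among bins of 200 kb, the one with the most newly marked sequence was on chromosome II from 7600001 to 7800000, where 7 new domains covered 90 kb with the inputs as labelled and 89 kb with the inputs labelled nrde-3. On chromosome III the bin from 7400001 to 7600000 held 5 new domains over 79 kb with either set of inputs. Bins of left arms were also among the highest, with 86.5 kb on V from 6000001 to 6200000 with the inputs labelled nrde-3, and 68.5 kb on I from 4200001 to 4400000 with the inputs as labelled. The median distance from a new domain to the nearest N2 domain was 57 kb with the inputs as labelled. Of the 726 new domains, 40 lay within 5 kb of an N2 domain and 394 more than 50 kb from one. A domain that also covered sequence marked in N2 could fall outside the new class, so these distances depend in part on the class rule. Distances of other sequence were not computed, and whether new domains extend N2 domains was not tested.

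New and remaining domains had similar median sizes. The median new domain was 3500 bp long with either set of inputs, with quartiles of 2000 and 6000 bp, and the median remaining domain 3000 bp, with quartiles of 2000 and 5500 bp. New domains covered 3.561 Mb and remaining domains 2.75 Mb with the inputs as labelled. Domains under 3000 bp made up 42.3% of the new and 42.9% of the remaining ones, but 16.5% of the sequence of the new ones. Lengths of 10000 bp or more were reached by 76 new and 63 remaining domains, and 20000 bp or more by 13 new and 5 remaining domains. The sizes are those of runs of windows past a 2-fold limit, so a longer stretch with a dip counts as several domains. Sizes of the classes were not tested against each other, because the same test called both.

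**Figure D3:**
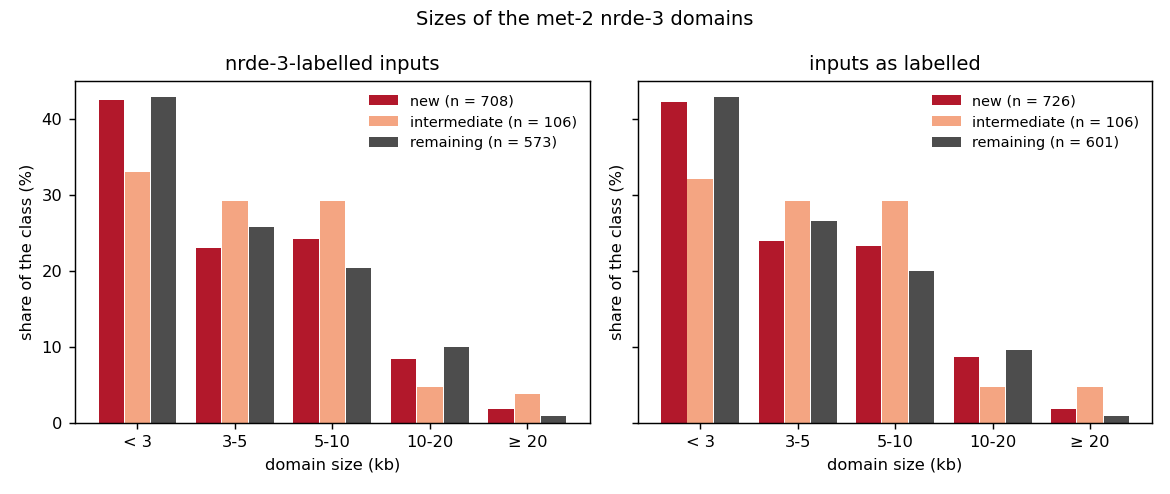
Share of each class of met-2 nrde-3 domains (vertical axis, percent) in 5 ranges of size (horizontal axis, kb), with the inputs labelled nrde-3 (left) and as labelled (right). In the left panel 42.5% of new and 42.9% of remaining domains are under 3 kb, and 1.84% of new and 0.873% of remaining ones reach 20 kb.

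The longest new domain found with the inputs as labelled covered 49000 bp on chromosome III, from 6746074 to 6795073 (ce10), in the centre. Its windows averaged 1397, 1557 and 1912 counts in the 3 met-2 nrde-3 H3K9me3 libraries, against 212, 232 and 230 counts in the inputs labelled met-2 nrde-3 and 220, 256 and 252 counts in those labelled nrde-3. The nrde-3 H3K9me3 libraries held 173, 130 and 214 counts per window over the same 49000 bp. All 3 preparations of the double mutant were thus far above both sets of inputs and above nrde-3. The levels with the inputs labelled nrde-3 were 2.97, 2.86 and 3.38 in met-2 nrde-3, against 0.12 and 0.11 in N2. In nrde-3 they were -0.03, 0.06 and 0.02 over the inputs labelled met-2 nrde-3, and -0.08, 0.12 and 0.07 over those labelled nrde-3. Below, where levels of a named domain use the inputs labelled nrde-3, the nrde-3 levels beside them use those labelled met-2 nrde-3. In lin-61 met-2 the levels of the domain on III were 0.92, 0.81 and 0.92, against 0.34, 0.29 and 0.45 in lin-61.

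With the inputs labelled nrde-3 a longer new domain appeared, 74000 bp on chromosome V from 6134450 to 6208449, at the inner end of the left arm. Its met-2 nrde-3 levels were 2.91, 2.84 and 3.34, against 0.24, 0.39 and 0.17 in nrde-3 and 0.44 and 0.43 in N2, close under the limit of the class. With the inputs as labelled the stretch was split in 2 domains, a new one from 6134450 to 6161949 and an intermediate one of 45500 bp. In the undivided stretch the level averaged 1.72 ± 0.13 in lin-61 met-2 and 0.25 ± 0.01 in lin-61 (SD, n = 3 each). The double mutants thus shared a raised level here, with all 3 lin-61 met-2 preparations above all 3 of lin-61.

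Further long new domains lay on chromosomes II, III, V and I. The one on II, from 7716981 to 7756980 and 40000 bp long, had levels of 2.37, 2.30 and 2.80 in met-2 nrde-3 with the inputs labelled nrde-3, against -0.13, -0.29 and -0.07 in nrde-3. The one on III from 7405072 to 7443570 had levels of 3.01, 2.91 and 3.54 in met-2 nrde-3, against -0.04, -0.11 and 0.15 in nrde-3. Its input depth was 1.72 times the median window, and 10.4% of its windows were tested in the lin-61 libraries. The part of this depth in the level was not tested. On V the domain from 10821930 to 10859929 was long and weak, with 1.41, 1.33 and 1.70 in met-2 nrde-3 against -0.16, -0.19 and -0.07 in nrde-3. On I the domain from 4328483 to 4360982, near the border of left arm and centre, had the highest mean level among new domains, 3.55 ± 0.31 in met-2 nrde-3 and 0.15 ± 0.07 in nrde-3 (SD, n = 3 each), with an input depth of 1.39 times the median window. Among the 10 longest new domains, every met-2 nrde-3 preparation lay above every nrde-3 preparation and both N2 preparations; the difference from N2 follows from how they were chosen.

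**Figure D4:**
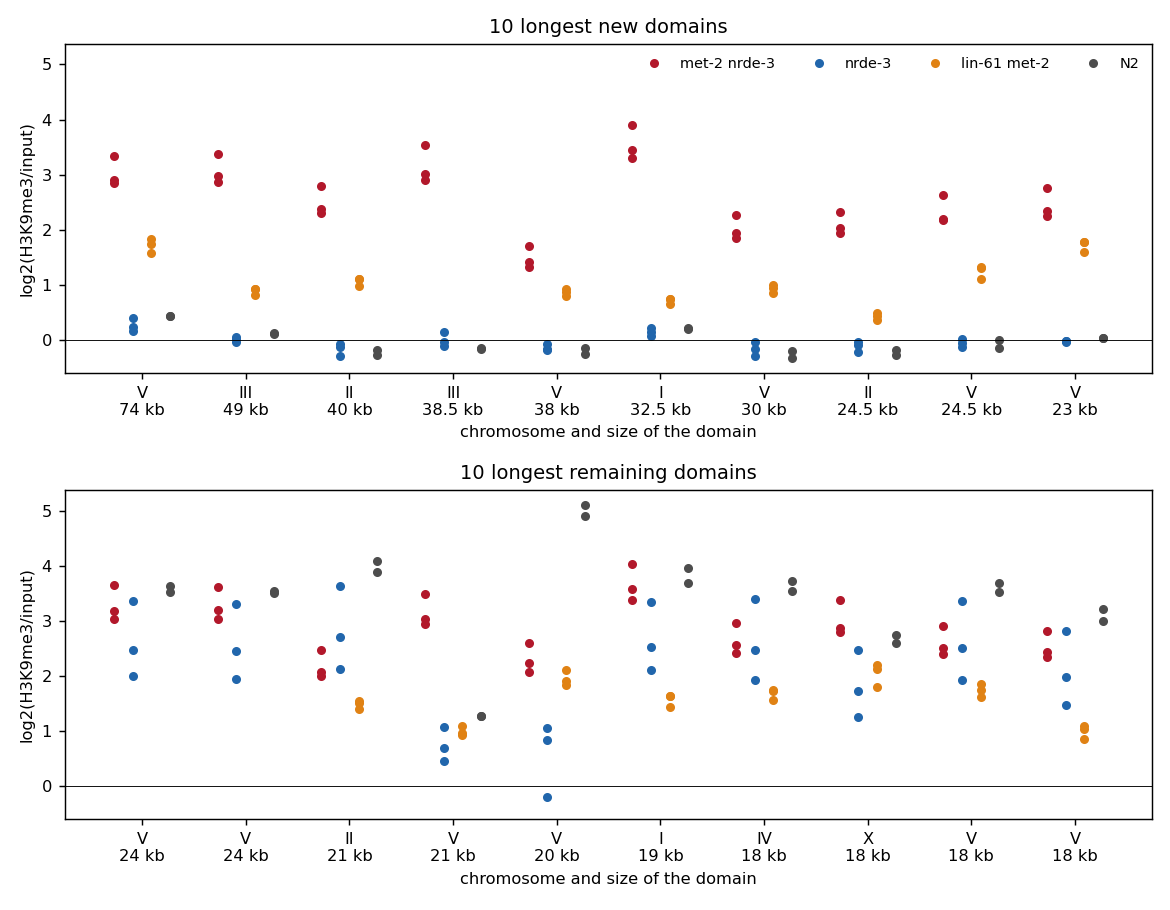
Log2 level of H3K9me3 over input (vertical axis) of each preparation in the 10 longest new (top) and 10 longest remaining domains (bottom) found with the inputs labelled nrde-3; the horizontal axis gives chromosome and size, and points are met-2 nrde-3, nrde-3, lin-61 met-2 and N2 (2 preparations) from left to right. lin-61 met-2 is left out where under 50% of the windows were tested. Levels of nrde-3 are over the inputs labelled met-2 nrde-3. In the top panel nrde-3 and N2 lie near 0, and in the bottom panel the order of the genotypes varies between domains.

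The nrde-3 H3K9me3 libraries took no part in choosing the new domains, while the inputs labelled nrde-3 did so in the second set. With the inputs as labelled, the mean nrde-3 level was under 0.5 in all 726 new domains, and it was so in all 708 with the inputs labelled nrde-3. The share of other sequence with a low N2 level that also lies under 0.5 in nrde-3 was not computed, so these counts are a description. Over all autosomal centres, where most new domains lay, nrde-3 averaged -0.15. The median level over new domains was 1.41, 1.28 and 1.65 in the met-2 nrde-3 preparations, against -0.20, -0.14 and -0.01 in nrde-3. In the remaining domains the order was mixed, with medians of 1.64, 1.42 and 1.87 in met-2 nrde-3, against 1.53, 2.48 and 1.25 in nrde-3. The preparations overlapped there, and nrde-3 reached a mean level of 1 in 470 of the 601 remaining domains and was under 0.5 in 14.

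N2 levels in the remaining domains were mostly higher than those of the double mutant. The median difference, met-2 nrde-3 minus N2, was -0.95 with the inputs as labelled and -0.97 with the inputs labelled nrde-3. It was -1.30 in left arms, -1.05 in right arms and -0.29 on X with the inputs as labelled. In the 52 remaining domains of centres the median difference was -0.00, and 26 of them had a higher level in met-2 nrde-3 than in N2. Over all regions 110 of 601 remaining domains (18.3%) had a higher level in met-2 nrde-3, and 23 exceeded N2 by 1 or more. Domains had to reach an N2 level of 1 to enter the class, so these differences are a description.

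Seen from the N2 side, most of the wild-type landscape was no longer marked. N2 had 2406 domains by its mean level, covering 18.33 Mb, with a median of 3500 bp. In 1747 of them (72.6%) no window was enriched in met-2 nrde-3 with the inputs as labelled, and in 368 (15.3%) at least 50% of the windows were. These numbers were 1756 and 351 with the inputs labelled nrde-3. The share of N2 domain windows that were enriched was 15.5% over all N2 domains, 12.0% in left arms, 13.99% in right arms, 28.2% on X and 56.9% in centres. Over all windows of the same regions the shares were 5.65% in left arms, 5.94% in right arms, 5.14% on X and 11.8% in centres. Each region lay above its own background, the arms by a smaller factor than X and centres. By that factor X stood above centres. The 160 N2 domains of centres were small, at a median of 2500 bp and 0.584 Mb in all.

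Large N2 domains were enriched over a minor part of their length, in no, 1 or several pieces. Of 37 N2 domains of 50000 bp or more, 30 held an enriched window with the inputs as labelled and 0 were enriched over at least 50% of their windows, and 11.7% of their windows were enriched. At least 2 separate domains lay in 16 of the 37 with either set of inputs, and no enriched window in 7 with the inputs as labelled and 11 with the inputs labelled nrde-3. The longest, 879996 bp on the right arm of V from 16965904 to 17845899, had 17.1% of its windows enriched, in 30 separate domains, with a mean level of 0.45 in met-2 nrde-3 against 3.91 in N2. It held 26 domains with the inputs labelled nrde-3. The second longest, 522498 bp on the left arm of II from 1534007 to 2056504, held 21 and 19 domains with a mean level of 0.59 and 0.51, against 3.45 in N2. On the right arm of V, the N2 domain from 18114399 to 18360397 held 2 domains with 4.27% of its windows enriched, and on I the N2 domain from 13050946 to 13149444 held none. A remaining domain took up a median of 37.5% of the N2 domain around it with the inputs as labelled and 38.5% with the others.

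The longest remaining domains that did not rest on the choice of inputs lay in the centre of V. The domain from 8822938 to 8846937, 24000 bp long, averaged 1854, 1897 and 2490 counts per window in the met-2 nrde-3 H3K9me3 libraries, against 217, 240 and 232 in the inputs labelled met-2 nrde-3. Its levels with the inputs labelled nrde-3 were 3.18, 3.04 and 3.65 in met-2 nrde-3, against 2.48, 3.36 and 2.00 in nrde-3 and 3.52 and 3.63 in N2. Met-2 nrde-3 overlapped both nrde-3 and N2 there. A neighbour from 8864938 to 8888937 had nearly the same levels, 3.20, 3.04 and 3.61 in met-2 nrde-3, against 3.50 and 3.55 in N2. None of the windows of the first and 4.17% of those of the second were tested in the lin-61 libraries, which hold few or no counts there.

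The order of the genotypes varied between the other long remaining domains. On the left arm of II the domain from 1929006 to 1950005 had levels of 2.08, 2.00 and 2.48 in met-2 nrde-3, against 2.70, 3.63 and 2.12 in nrde-3 and 3.88 and 4.09 in N2, so the double mutant lay below both N2 preparations. On the right arm of I the domain from 14877938 to 14896937 had 3.58, 3.38 and 4.03 in met-2 nrde-3, against 3.69 and 3.96 in N2, and overlapped it. On X the domain from 3226724 to 3244723 had 2.87, 2.79 and 3.38 in met-2 nrde-3, against 1.72, 2.47 and 1.25 in nrde-3 and 2.60 and 2.74 in N2. This was one of the remaining domains in which all 3 preparations of the double mutant lay above both N2 preparations. In the centre of V the remaining domain from 8474940 to 8489439 had the highest mean level with the inputs labelled nrde-3, 3.85 ± 0.37 in met-2 nrde-3 and 2.48 ± 0.74 in nrde-3 (SD, n = 3 each), with 3.42 and 3.58 in N2.

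The longest remaining domain with the inputs as labelled changed in extent and level with the inputs. On the right arm of V a domain of 38000 bp from 18427897 to 18465896 had the highest level of all domains, 4.92. It averaged 490, 533 and 617 counts per window in the met-2 nrde-3 H3K9me3 libraries, against 18.7, 23.9 and 26.7 in the inputs labelled met-2 nrde-3 and 199, 238 and 233 in those labelled nrde-3. With the inputs labelled nrde-3 a domain of 20000 bp from 18435897 to 18455896 was left, with levels of 2.24, 2.07 and 2.59 in met-2 nrde-3, against 4.90 and 5.10 in N2. The height of 4.92 thus went with a nearly empty labelled input.

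Edges of the domains were sharp at this resolution. With the inputs labelled nrde-3, the mean level at new domains was 0.34 in met-2 nrde-3 at 2 kb outside the edge, 0.72 at 0.5 kb outside, 1.21 in the outermost window and 1.78 at 2 kb inside. At the same 4 distances nrde-3, over the inputs labelled met-2 nrde-3, stood between -0.18 and -0.07 and N2 between -0.27 and -0.09. Outside the new domains met-2 nrde-3 kept a level of 0.35 at 10 kb, near the 0.29 of all autosomal centres. At remaining domains the outer level of met-2 nrde-3 at 2 kb was 0.26 and the inner one 2.05, against 1.45 and 3.01 in N2. The surroundings of the remaining domains thus had a higher level in N2 than in the double mutant. The step at the edge of the met-2 nrde-3 line is set by the rule that cut the domains.

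**Figure D5:**
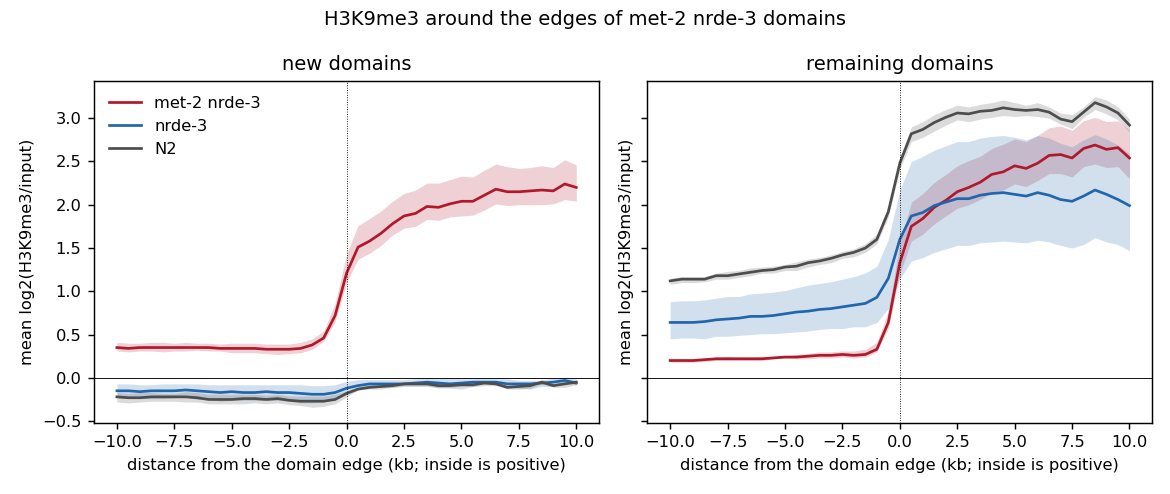
Mean log2 level of H3K9me3 over input (vertical axis) by distance from the edge of a met-2 nrde-3 domain (horizontal axis, kb, positive inside), for new (left) and remaining domains (right) with the inputs labelled nrde-3; bands show the lowest and highest preparation of met-2 nrde-3, nrde-3 and N2. Levels of nrde-3 are over the inputs labelled met-2 nrde-3. Left, nrde-3 and N2 stay under 0 across the edge. Right, N2 lies at 1.45 at 2 kb outside the edge, against 0.26 in met-2 nrde-3.

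Each preparation was also read alone, taking runs of windows at a level of at least 1 without a test. With the inputs as labelled, the met-2 nrde-3 preparations had 1366, 1182 and 1625 such domains, against 1165, 1984 and 957 in nrde-3. The counts overlapped, with means of 1391 ± 223 in met-2 nrde-3 and 1369 ± 543 in nrde-3 (SD, n = 3 each; exact permutation p = 0.9, adjusted 1). Domains of at least 10000 bp numbered 146 ± 23.8 in met-2 nrde-3 and 232.7 ± 88.2 in nrde-3 (SD, n = 3 each; exact permutation p = 0.2, adjusted 0.3). The share of domains in autosomal centres was 40.1%, 41.6% and 42.2% in met-2 nrde-3, against 4.38%, 5.75% and 4.08% in nrde-3. These shares did not overlap (exact two-sided permutation p = 0.1, the smallest possible, adjusted 0.3). The longest domain of a preparation was 49000 to 74000 bp in met-2 nrde-3 and 258999 to 418498 bp in nrde-3. In N2, 6.50% and 6.34% of the domains lay in centres.

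The lin-61 met-2 and lin-61 libraries had no part in choosing the domains and come from another library series, going by the numbers in their titles. In them H3K9me3 over input was compared between lin-61 met-2 and lin-61 by edgeR, which called 6.14% of 197087 windows higher and 6.22% lower in lin-61 met-2 at an adjusted p under 0.05. Of the windows in new domains of met-2 nrde-3, 3537 of 6943 tested (50.9%) were higher and 16 (0.230%) lower in lin-61 met-2, with a median log2 change of 0.68 against 0.01 over all windows. In the remaining domains, 1392 of 4880 (28.5%) were higher and 216 (4.43%) lower, with a median of 0.36. Among intermediate domains 60.2% of the windows were higher. In centres, new domains stood at 48.5% and remaining domains at 48.6%, against 10.9% for all windows of centres. In arms, new domains stood at 46.75% and remaining domains at 22.5%, against 3.02% for all windows of arms. The shares of the 2 classes thus differed in arms but not in centres. The median lin-61 level already differed between these groups. It was 0.91 in remaining domains of left arms, 0.96 in those of right arms and 0.30 in those of centres. In new domains it was 0.28, 0.34 and 0.16 in the same order. Of the 592 windows in remaining domains of centres, 420 were tested. The part of these limits in the shares was not tested. The shares with the inputs labelled nrde-3 were 52.3% for new and 29.5% for remaining domains. Leaving out replicate 3 of both lin-61 genotypes lowered them to 27.1% and 11.6% with the inputs as labelled, against a background of 2.14%; leaving out replicate 1 gave 35.5% and 18.2% against 3.54%, and leaving out replicate 2 gave 30.8% and 18.6% against 2.58%.

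The levels showed the same order. Over the new domains with windows tested there, the median level was 0.88, 0.71 and 0.83 in lin-61 met-2, against 0.19, 0.16 and 0.29 in lin-61. Of 725 new domains, 225 reached a level of 1 in lin-61 met-2, against 5 in lin-61. All 3 lin-61 met-2 preparations lay above all 3 of lin-61. The medians of met-2 nrde-3 in the same class were higher, 1.41, 1.28 and 1.65, but its libraries belong to the other library series, so genotype and library series cannot be told apart. In all, 21 of 1433 domains had no window tested in the lin-61 libraries, 19 of them remaining ones.

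High input depth touched few domains. An input depth of at least 2 times the median window was found in 12 of 1433 domains with the inputs as labelled, of which 7 were remaining and 4 new. The median relative input depth was 0.923 in remaining and 1.00 in new domains. Windows not tested in the lin-61 libraries made up 5.89% of the enriched windows with the inputs as labelled, against 1.74% of all windows. Input depth does not capture this, since the domain on V from 8822938 to 8846937 had no window tested there and a depth of 0.96. The cause was not tested. On the mitochondrial genome, which carries no histones, the level was 0.13, 0.23 and 0.18 in met-2 nrde-3 with the inputs as labelled and 0.99, -0.15 and -0.56 with the inputs labelled nrde-3. The second set of inputs thus gave a wider spread there for met-2 nrde-3. For nrde-3 the inputs as labelled gave the wider spread, 0.48, -1.36 and -1.07, against -0.38, -0.98 and -0.32 over those labelled met-2 nrde-3. The 2 N2 preparations stood at 0.14 and -1.31. Pairs of preparations of met-2 nrde-3 correlated at r of 0.819 to 0.910 with the inputs labelled nrde-3 and of 0.888 to 0.906 with the inputs as labelled.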

How the data were processed

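The deposited file holds counts per 500 bp window and library, whole numbers with a different total in each column; the build is ce10 per the submitters' processing notes. The aligner, the counting tool and the handling of duplicates are not given in the sources used here. Both runs of a library are combined in its column, and columns were assigned by their names, which match the titles. Libraries were amplified and carry no molecular identifiers, so counts overstate independent fragments.

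Windows with at least 10 counts in at least 3 libraries were tested with edgeR 4.0.16 in R 4.3.3 (TMM scaling, quasi-likelihood test, Benjamini-Hochberg adjustment over all windows tested), with H3K9me3 and input as the 2 groups of a comparison. A window was called at an adjusted p under 0.05 and a log2 of at least 1. The comparison of lin-61 met-2 with lin-61 tested the difference of their H3K9me3 over input. Levels used the same scaling and a pseudocount of 8. N2 domains are runs of at least 3 windows at a mean N2 level of at least 1, joined in the same way. The windows not 500 bp long numbered 442 of 200579. Per-region and per-preparation values were compared by exact permutation over preparations. Domains per preparation, and the omission of lin-61 replicates inside the domains, were chosen after seeing the data.

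On simulated counts, a window raised 2-fold counted as recovered if higher at an adjusted p under 0.05, with no limit on the fold. By that rule 100 of 100 were recovered for met-2 nrde-3 over input with either set of inputs, and 54 of 100 for lin-61 met-2 over lin-61. The median log2 of these windows was 1.01 with the inputs as labelled and 0.986 with the inputs labelled nrde-3. Recovery under the 2-fold limit of the calls was therefore not measured. Each simulated window had 1 mean over all libraries of its comparison, and all windows shared a single dispersion. Few windows were raised, whereas 7.33% of the real windows were enriched with the inputs as labelled. These rates thus hold for that setting and are not the power of the tests on the real counts. Named domains are the 10 longest and 5 highest of a class and the longest of each chromosome, from which those described were taken. The domains, classes and limits were chosen with earlier results of these data known. Genes were not assigned and no sequence is given, because the annotation at hand is of another build than ce10. DESeq2 1.42.0, other scalings, thresholds and class limits, and the omission of each preparation were alternatives. No library was moved to another group.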

Additional observations from a re-analysis of the deposited data

How the results depend on the processing

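Of 198 alternatives, 171 left a result within the limits set and 27 moved it. A count was within the limits if it changed by at most 1.5-fold, and a region level if it kept its sign. These limits are wide. With the inputs as labelled they took in 10121 enriched windows in place of 14693, with scaling by library totals. They also took in 401 remaining domains in place of 601 with all 3 N2 replicates, and a left-arm difference of -0.13 in place of -0.30 with library totals. A reversed direction could be recorded only for the region levels, and none was. Among the counts, new domains no longer outnumbered remaining ones at 3-fold. The same held with scaling by library totals and the inputs as labelled. The counts followed the fold limit: at 1.5-fold there were 24163 enriched windows, 2282 domains and 1302 new domains with the inputs as labelled, and 23330, 2186 and 1245 with the inputs labelled nrde-3. At 3-fold there were 8352 windows, 835 domains, 363 new and 397 remaining with the inputs as labelled, and 8117, 789, 349 and 377 with the others. Requiring at least 6 enriched windows left 824 domains, 415 new and 338 remaining, and 794, 404 and 320. Scaling by library totals, which moved the median log2 of all windows to -0.42 and -0.41 from -0.05, left 448 and 436 new domains; the share of new domains in centres was 69.0% and 69.5%. Using all 3 N2 replicates gave 843 and 823 new and 401 and 384 remaining domains. DESeq2 gave 1453 and 1408 domains. Leaving out one preparation gave 1302 to 1541 domains with the inputs as labelled and 1217 to 1460 with the others. It gave 158 to 453 windows that differed between the inputs, lowest without replicate 3 and 216 without replicate 2. It gave 8581 to 13893 windows that differed between lin-61 met-2 and lin-61, against 24347. The cause of these moves was not tested.

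Deviations of preparations with the same number correlated at -0.10 to 0.22. The highest value was that of replicate 2 with the inputs labelled nrde-3, and the others were at most 0.06. For met-2 nrde-3 the same number was the best match in replicates 2 and 3 with the inputs as labelled. With the inputs labelled nrde-3 it was so in replicates 1 and 2. With the replicate number as a block there were 14652 and 14205 enriched windows, 324 that differed between the inputs, and 21760 between lin-61 met-2 and lin-61. In the lin-61 comparison, whose libraries held down to 22265768 counts, a 2-fold change was recovered for 54 of 100 simulated windows, so 2-fold changes can go undetected there; the part of depth in this was not tested.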
